A study of Mus musculus with 12 samples.

Results

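Mitochondrial ribosomal proteins were followed as 78 nuclear genes, 49 with a large subunit symbol (Mrpl) and 29 with a small subunit symbol (Mrps), among 52962 measured genes. They were chosen by name alone: protein-coding genes outside patch sequences whose symbol is Mrpl or Mrps followed by a number and, at most, the letter a, b or c. No measured value entered the choice. The libraries came from mouse retinas collected at postnatal day 8 after electroporation, in which an electric pulse carries plasmids into retinal cells. GFP-positive rods, the photoreceptors of dim-light vision, were picked by hand, and 50 to 100 of them went into each stranded total RNA library. The 4 groups of 3 libraries were shRNA mCsnk2a1 (a short hairpin RNA against Csnk2a1, the alpha catalytic subunit of protein kinase CK2), shRNA Control, pcDNA4c mCsnk2a1 (an expression vector carrying mouse Csnk2a1) and pcDNA4c Control. All 4 groups were electroporated. Mouse strain and the promoter driving GFP are not given in the sources used here. Each treatment has 3 independent RNA samples, with no word on animals, so a p-value reflects how these samples scatter, which may be technical. In such pools, fewer cells of a type and less RNA per cell cannot be told apart. The series asked how CK2 bears on gene expression driven by the rod transcription factor NRL.

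The mitochondrial ribosome, or mitoribosome, makes the few membrane proteins of the respiratory chain that mitochondrial DNA encodes. Its small subunit reads the messenger RNA and its large subunit joins the amino acids and passes the chain out through an exit tunnel towards the inner membrane. Its RNA comes from mitochondrial DNA, but all its proteins are encoded in the nucleus, made in the cytosol and imported. Part of these proteins have counterparts in bacterial ribosomes, and the rest are found only in mitochondria. Rods pack mitochondria densely into the ellipsoid next to the outer segment and depend on them for the ATP that phototransduction and ion pumping use.

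The symbols do not name the place of every protein. Mrps30 and Mrps18a encode proteins that sit in the large subunit, Mrps18a, Mrps18b and Mrps18c are related to a single bacterial protein, and Mrps36 encodes a component of the 2-oxoglutarate dehydrogenase complex. Mrpl58 encodes a peptidyl-tRNA hydrolase built into the large subunit, and Mrpl12 a stalk protein that also binds mitochondrial RNA polymerase. By protein family, 45 of the 78 were counted as having a bacterial counterpart and 33 as having none. Of the Mrps18 genes only Mrps18c was counted among the 45, and Mrps18a and Mrps18b were placed in the 33.

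The genes lay on 17 chromosomes, with 11 of them on chromosome 11, and all 78 had the same position in the GENCODE M21 annotation of GRCm38 (mm10). Many of them start back to back with another gene. A protein-coding gene on the opposite strand started within 1000 bases for 32 of the 78 (41.0%), against 2313 of 21926 protein-coding genes (10.5%). Mrpl46 and Mrps11, a large and a small subunit gene, form such a pair, with 412 bases between their starts. Other partners serve mitochondria too: Mrps12 starts 172 bases from Sars2, the mitochondrial seryl-tRNA synthetase, Mrpl36 starts 29 bases from Ndufs6, a complex I subunit, and Mrpl43 starts 779 bases from Twnk, the mitochondrial DNA helicase. The annotated spans of Mrpl46 and Mrps11 overlap, and as strand use in the quantification is not given, reads there cannot be assigned with certainty. Mrpl46 read 18.8, 20.6 and 21.4 CPM in shRNA mCsnk2a1, 19.2, 7.74 and 11.9 CPM in shRNA Control, 58.6, 17.2 and 2.35 CPM in pcDNA4c mCsnk2a1 and 5.41, 0.5 and 5.54 CPM in pcDNA4c Control. Mrps11 read 10.9, 21.8 and 18.9 CPM in shRNA mCsnk2a1, 6.74, 4.76 and 26.7 CPM in shRNA Control, 0, 4.07 and 5.71 CPM in pcDNA4c mCsnk2a1 and 10.8, 11.5 and 13.3 CPM in pcDNA4c Control. Against pcDNA4c Control, the Mrpl46 groups overlap, whereas all 3 pcDNA4c mCsnk2a1 libraries were below every control library for Mrps11. Mrpl49 starts 59 bases from Fau, which encodes a cytosolic ribosomal protein.

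RefSeq promoter windows of 300 bases, 250 before and 50 after each start on GRCm38.p6, were found for 69 of the 78 genes and 27025 genes in all. The 27025 were not limited to protein-coding genes, whereas all 69 are protein-coding. The palindromic motif of NRF1, a transcription factor known for driving nuclear genes of mitochondrial function, stood in the windows of 13 of the 69 (18.8%), against 5.19% of all genes. CCGGAAG, the core bound by ETS factors such as GABPA, stood in 26 of the 69 (37.7%), against 9.93% of all genes. AANATGGCG, a match to YY1, stood in 11 (15.9%), against 2.76%. The Sp family letters GGGCGG stood in 34 (49.3%), against 38.2%, and the TATA box TATAAA in 5 (7.25%), against 15.7%. Both strands were read, and matches to different motifs overlapped in 2 of the 75 windows of these genes. The median GC content was 58.7% over these 75 windows and 52.7% over all windows. A match describes letters in a window and shows no binding.

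The 250 bases before the start are shown for 4 genes, in capitals where they match the NRF1, ETS or YY1 motifs. Mrpl45 (chr11:97315466-97315715, plus strand) and Mrpl17 (chr7:105811088-105811337, minus strand) show the NRF1 motif, and Mrpl22 (chr11:58171414-58171663, plus strand) and Mrpl52 (chr14:54426659-54426908, plus strand) are genes whose levels stand apart in the comparisons.
Mrpl45: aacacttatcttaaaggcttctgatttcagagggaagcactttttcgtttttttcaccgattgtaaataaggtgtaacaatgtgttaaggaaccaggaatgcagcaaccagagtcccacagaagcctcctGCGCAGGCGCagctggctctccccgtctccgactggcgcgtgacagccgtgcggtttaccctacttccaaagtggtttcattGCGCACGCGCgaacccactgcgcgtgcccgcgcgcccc
Mrpl17: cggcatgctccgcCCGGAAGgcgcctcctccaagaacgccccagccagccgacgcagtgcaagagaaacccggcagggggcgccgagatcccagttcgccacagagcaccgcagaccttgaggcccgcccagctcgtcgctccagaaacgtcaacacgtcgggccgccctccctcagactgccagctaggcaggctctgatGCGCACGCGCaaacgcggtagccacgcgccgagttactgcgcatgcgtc
Mrpl22: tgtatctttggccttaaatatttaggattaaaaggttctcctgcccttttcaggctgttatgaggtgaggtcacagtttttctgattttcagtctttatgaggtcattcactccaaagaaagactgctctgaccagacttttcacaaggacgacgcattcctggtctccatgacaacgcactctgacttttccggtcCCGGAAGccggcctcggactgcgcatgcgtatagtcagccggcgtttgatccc
Mrpl52: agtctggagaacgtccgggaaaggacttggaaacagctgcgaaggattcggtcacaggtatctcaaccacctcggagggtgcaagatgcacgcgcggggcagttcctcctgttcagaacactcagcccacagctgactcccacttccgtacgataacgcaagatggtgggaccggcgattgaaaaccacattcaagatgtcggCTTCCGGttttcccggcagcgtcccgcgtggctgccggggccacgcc
Mrpl45 holds the NRF1 motif at 2 places, Mrpl17 holds NRF1 and ETS motifs, Mrpl22 holds ETS letters, and Mrpl52 holds ETS letters read from the opposite strand.

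Summed estimated counts were 2840541 to 3567252 in shRNA mCsnk2a1, 1609099 to 1856934 in shRNA Control, 2296158 to 3551483 in pcDNA4c mCsnk2a1 and 1692825 to 2017899 in pcDNA4c Control libraries, so both groups with a Csnk2a1 construct were deeper than their controls. Csnk2a1 itself read 12.0, 22.2 and 36 CPM (estimated counts relative to library size, with TMM scaling) in shRNA mCsnk2a1, against 66.9, 57.2 and 8.51 in shRNA Control, and 49.9, 145 and 122 in pcDNA4c mCsnk2a1, against 86.6, 25.0 and 28.3 in pcDNA4c Control. Both pairs of groups overlap, so the targeted gene does not separate the groups of either arm. All 10 rod markers listed, Nrl among them, were counted in every group. The rod list summed to 11117 to 13375 CPM in shRNA mCsnk2a1 and 5131 to 7283 CPM in shRNA Control, and to 4994 to 11043 CPM in pcDNA4c mCsnk2a1 and 5136 to 6713 CPM in pcDNA4c Control. Markers of other retinal cells were counted as well. In the knockdown arm 4 further lists lay apart between the groups. Müller glia markers summed to 531 to 783 CPM in shRNA mCsnk2a1 and 208 to 369 CPM in shRNA Control, and bipolar markers to 507 to 973 CPM in shRNA mCsnk2a1 and 298 to 445 CPM in shRNA Control. Ganglion cell markers summed to 82.8 to 150 CPM in shRNA mCsnk2a1 and 21.4 to 67.5 CPM in shRNA Control. Microglia markers were the list below its control, at 13.2 to 40.9 CPM in shRNA mCsnk2a1 and 61.9 to 88.7 CPM in shRNA Control. In the overexpression arm Müller glia markers summed to 196 to 462 CPM in pcDNA4c mCsnk2a1 and 122 to 172 CPM in pcDNA4c Control, bipolar markers to 541 to 653 CPM in pcDNA4c mCsnk2a1 and 111 to 162 CPM in pcDNA4c Control, and cone markers to 11.4 to 24.1 CPM in pcDNA4c mCsnk2a1 and 70.4 to 114 CPM in pcDNA4c Control. The 15 microglia markers summed to 62.8 to 93.0 CPM in pcDNA4c mCsnk2a1 and 1050 to 1221 CPM in pcDNA4c Control. All 15 had a count in pcDNA4c Control, 7 did in pcDNA4c mCsnk2a1, and the microglial genes C1qa, Tyrobp and Mpeg1 were at 0 in all 3 pcDNA4c mCsnk2a1 libraries.

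The genes were low but widely detected. Median counts were 34 per gene and library, and 111 of the 936 values (11.9%) were 0, against 34.5% zeros over all protein-coding genes. Only 28 of the 78 had a count in all 12 libraries. On the per-length TPM scale (transcript abundance relative to all transcripts of a library), the median of the genes' means was 9.31 TPM for the large and 8.04 TPM for the small subunit symbols. The median gene stood at percentile 78.1 of protein-coding genes by mean TPM, and the 78 ran from percentile 45.1 to 99.3. Genes counted as having a bacterial counterpart had a median of 8.45 TPM, and the others, Mrps18a and Mrps18b among them, had 10.2 TPM. By library, the median over the 78 genes was 3.29 to 9.78 TPM. In the same libraries it was 39.5 to 108 TPM over 81 cytosolic ribosomal protein genes and 21.3 to 51.0 TPM over 81 nuclear respiratory chain genes.

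**Figure D1:**
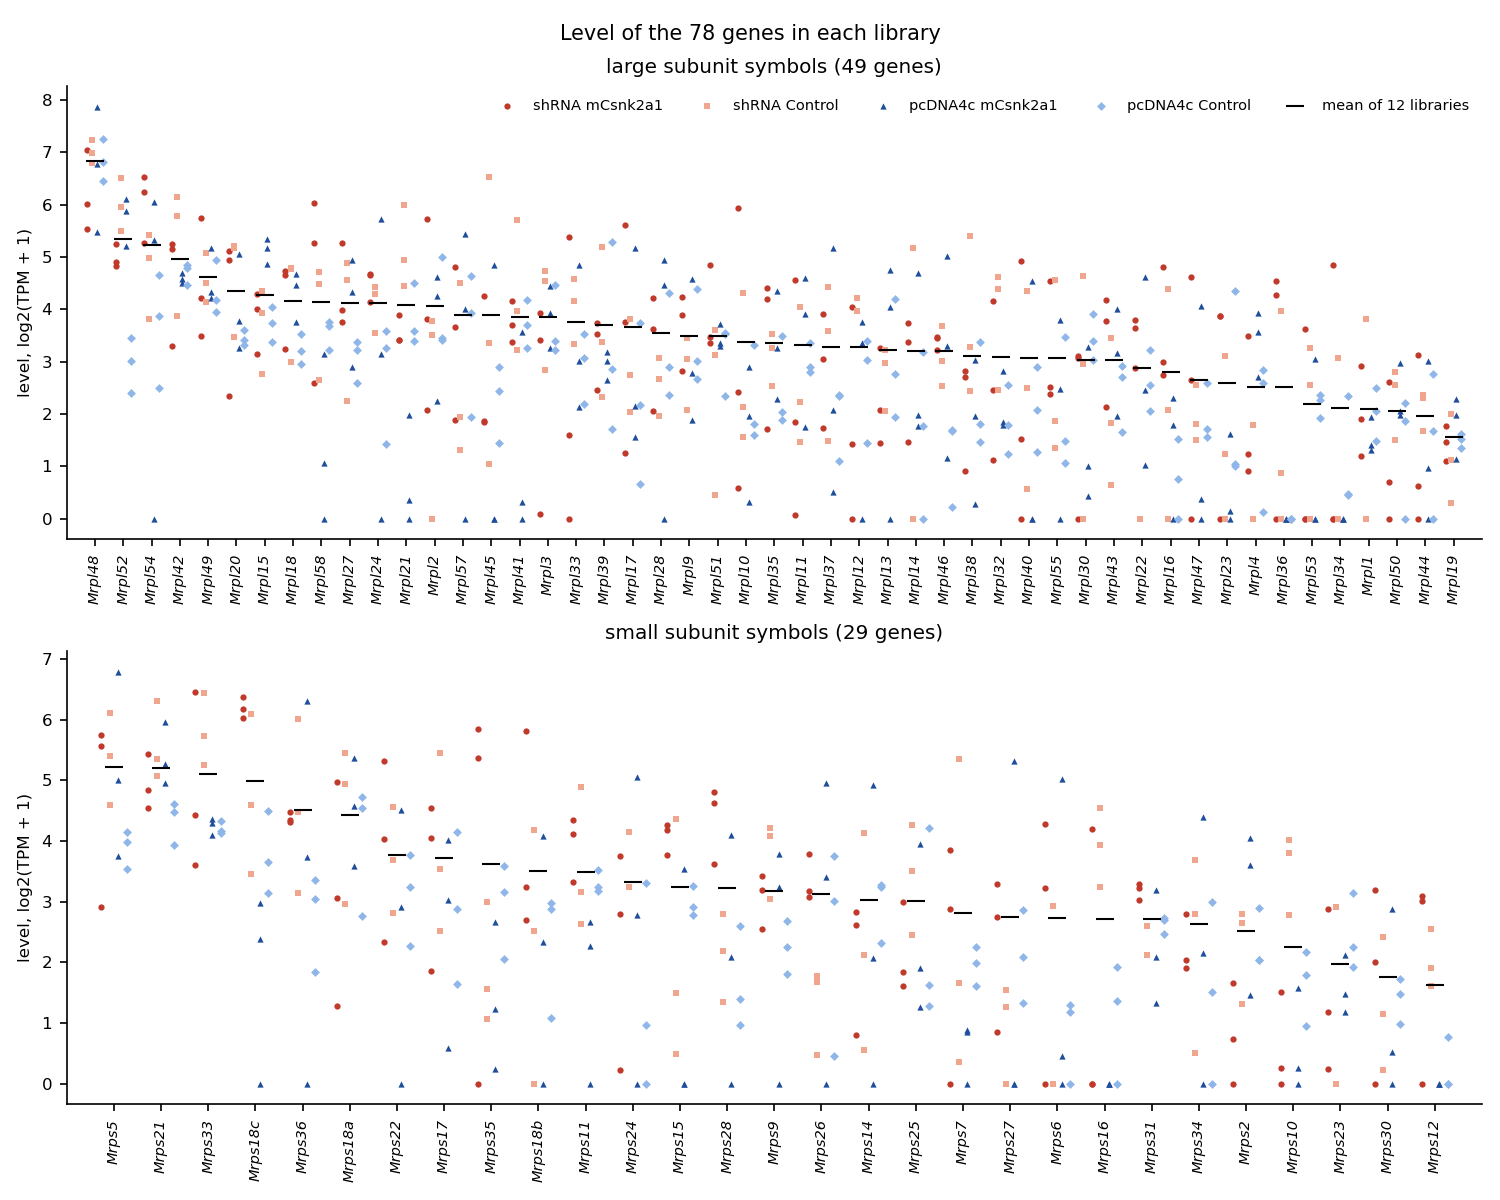
Level of each gene in each of the 12 libraries as log2(TPM + 1), large subunit symbols above and small subunit symbols below, ordered by mean; black bars mark the log2 of the mean TPM plus 1. Mrpl48 stands first with a mean of 113 TPM, and Mrpl54, with a mean of 36.4 TPM, already includes a library at 0.

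Among the large subunit symbols the highest means were Mrpl48 at 113 TPM, Mrpl52 at 39.4 TPM, Mrpl54 at 36.4 TPM, Mrpl42 at 30.2 TPM, Mrpl49 at 23.7 TPM and Mrpl20 at 19.4 TPM. Small subunit symbols were led by Mrps5 at 36.1 TPM, Mrps21 at 35.9 TPM, Mrps33 at 33.3 TPM, Mrps18c at 30.8 TPM, Mrps36 at 21.8 TPM and Mrps18a at 20.5 TPM. Mrps5 and Mrps21 have bacterial counterparts, and Mrps33 is specific to mitochondria. At the low end stood Mrpl19 at 1.93 TPM, Mrps12 at 2.08 TPM, Mrps30 at 2.39 TPM, Mrpl44 at 2.88 TPM, Mrps23 at 2.93 TPM and Mrpl50 at 3.14 TPM. A second copy of Mrps23 on a patch sequence carried identical values. The Mrps23 level is therefore the share assigned to the chromosome 11 copy, and its low place is uncertain. Mrps12 encodes a protein of the decoding centre. Of the 77 steps between neighbours in this order, 1 exceeded the SD over libraries, the step from Mrpl48 to Mrpl52. The order of other neighbours is therefore not resolved. Genes far apart in the order can still lie apart, as Mrpl52 at 4.26 to 89.6 TPM and Mrpl19 at 0.233 to 3.91 TPM over the libraries. Over the 12 libraries the coefficient of variation of a gene's CPM had a median of 0.950 and ran from 0.394 to 2.50.

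Mrpl48, whose protein is specific to the mitochondrial large subunit, had most of its level in a noncoding transcript. Of its summed TPM, 95.2% was assigned to Mrpl48-203, annotated as a processed transcript with no coding sequence (chr7:100597826-100607638, minus strand, 2 exons). Mrpl48-203 read 130, 39.9 and 42.4 TPM in shRNA mCsnk2a1, against 124, 141 and 107 TPM in shRNA Control, and 228, 41.2 and 107 TPM in pcDNA4c mCsnk2a1, against 109, 81.2 and 146 TPM in pcDNA4c Control. Coding Mrpl48 transcripts summed to 0 to 9.46 TPM over the libraries. Exon 2 of Mrpl48-203 has 625 bases, and 72.0% of them lay in 31-base words also present in annotated transcripts of other genes. The transcript shared at least 1 such word with 100 other genes, which makes its level uncertain. Mrpl48-203 alone held 5.38% to 32.5% of the summed TPM of the large subunit symbols, and sums below are therefore also given without Mrpl48.

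The annotated type of the transcripts varied across the other genes too. Coding transcripts held 50.6% to 64.2% of the summed TPM of the 78 genes by library, against 65.0% to 70.4% over all protein-coding genes. Retained introns held 9.91% to 28.2% and processed transcripts 9.04% to 32.3%. With Mrpl48-203 left out, the coding share was 57.0% to 75.0%. Coding transcripts held less than 50% of the TPM for 26 of the 78 genes. Mrps16 is an example, with 4.38% of its TPM coding, as are Mrpl15 with 13.7% and Mrps35 with 16.5%. Counting only coding transcripts, the median of the genes' mean levels was 6.78 TPM for the large and 3.90 TPM for the small subunit symbols.

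**Figure D2:**
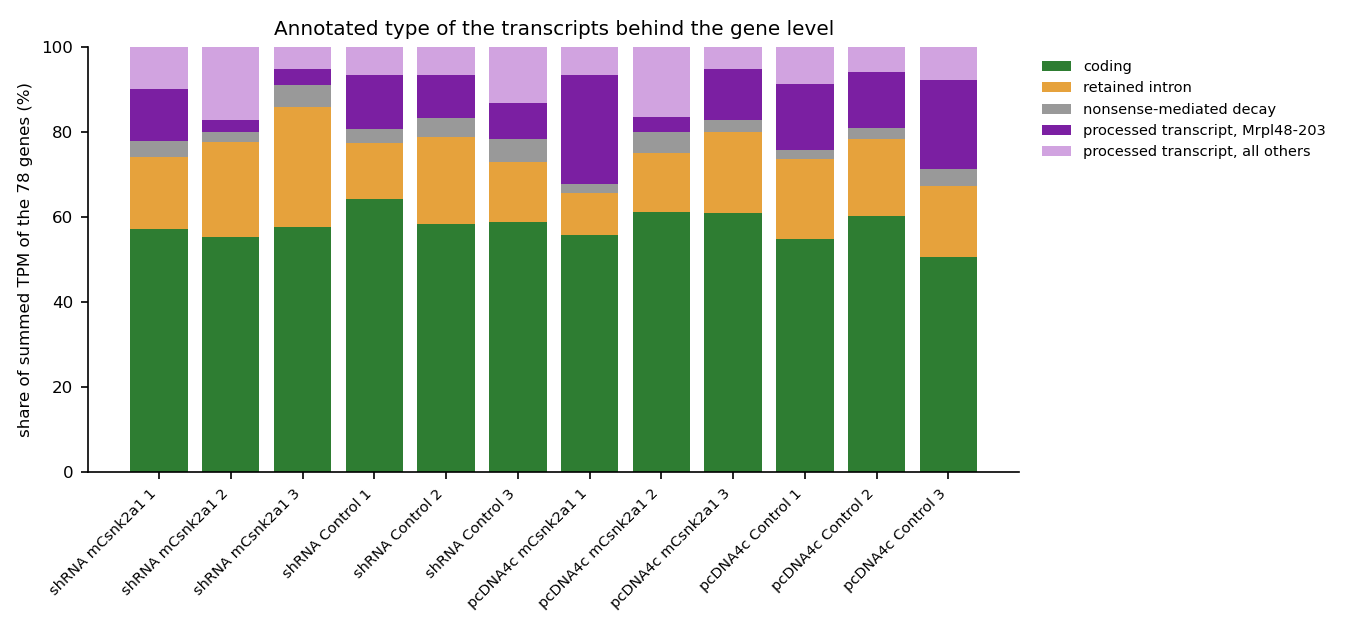
Share of the summed TPM of the 78 genes, in percent, by annotated transcript type in each library, with the processed transcript Mrpl48-203 drawn apart. Coding transcripts hold 50.6% to 64.2%, and the share of all processed transcripts is highest, at 32.3%, in pcDNA4c mCsnk2a1 1.

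Knockdown asked what an shRNA against Csnk2a1 does to these genes. None of the 77 tested genes passed an adjusted p of 0.05 in edgeR's quasi-likelihood test, and DESeq2 and limma voom called 0 of them too (Mrps12 was too low to test). The large subunit symbols summed to 1529, 1612 and 1845 CPM in shRNA mCsnk2a1, against 1056, 1464 and 1136 CPM in shRNA Control. Every shRNA mCsnk2a1 sum lay above every control sum. Without Mrpl48 the sums were 1340, 1552 and 1757 CPM in shRNA mCsnk2a1, against 924, 1310 and 1016 CPM in shRNA Control, again without overlap. The small subunit symbols summed to 951, 1237 and 524 CPM in shRNA mCsnk2a1, against 454, 669 and 799 CPM in shRNA Control, and these groups overlap.

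The large subunit separation depends on the scale. With libraries thinned to equal totals and no TMM scaling, the large subunit sums were 1443, 1480 and 1676 CPM in shRNA mCsnk2a1, against 1108, 1528 and 1191 CPM in shRNA Control, and overlap. In summed TPM they were 687, 741 and 784 in shRNA mCsnk2a1, against 642, 941 and 741 in shRNA Control, and overlap too. On that scale protein-coding genes together held less in shRNA mCsnk2a1, at 171420 to 192817 TPM, than in shRNA Control, at 199252 to 222625 TPM. Other nuclear gene families were also higher on the TMM scale. Cytosolic ribosomal protein genes summed to 10893 to 14121 CPM in shRNA mCsnk2a1 and 8802 to 9862 CPM in shRNA Control, and respiratory chain genes to 5841 to 7481 CPM in shRNA mCsnk2a1 and 4479 to 4994 CPM in shRNA Control. The part of depth and of the rod, Müller glia, bipolar, ganglion cell and microglia markers, which separate the same 2 groups, was not tested.

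**Figure D3:**
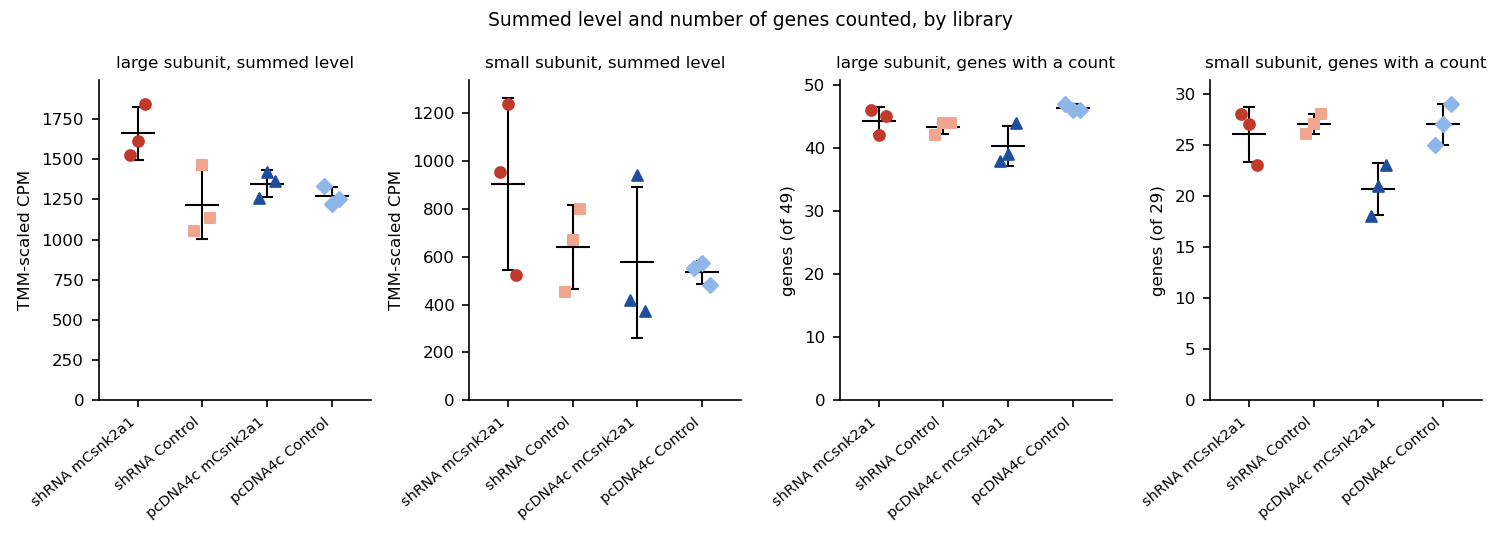
Summed TMM-scaled CPM of the 49 large and 29 small subunit symbols (left panels) and the number of them with at least 1 count (right panels), a point per library, with mean and SD of 3 libraries. The large subunit sums of shRNA mCsnk2a1 lie at 1529 to 1845 CPM, above 1056 to 1464 CPM in shRNA Control, and pcDNA4c mCsnk2a1 has the fewest small subunit genes with a count, 18 to 23.

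Gene by gene, the median log2 difference in knockdown was 0.59 over the 49 large subunit symbols, with 33 of them above 0, and -0.05 over the 28 tested small subunit symbols, with 14 above 0. Without shRNA Control 3 the small subunit median was 0.81, so the gap between the subunits rests on that library. Over all 20267 genes tested the median was -0.03 and 48.9% were above 0. No gene of the 20267 passed the adjusted threshold (0%), and 8.33% had an unadjusted p under 0.05 in edgeR's quasi-likelihood test. Among the 77 genes 2 did, Mrpl22 and Mrps35, both higher, as were 3.23% of all genes, and 0 were lower, against 5.1%. The 3 shRNA mCsnk2a1 libraries lay apart from the 3 shRNA Control libraries for 10 of the 77 genes, or 13%, against 12.3% of all genes. The 2 shares are close. Of the 10, Mrpl22, Mrpl24, Mrpl51, Mrpl54, Mrps18c, Mrps26, Mrps28 and Mrps31 were higher, 8 genes against 5.61% of all genes, and Mrpl21 and Mrps10 were lower, against 6.68%. With coding transcripts only, the large subunit median was 0.02 in limma on log2(TPM + 1).

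Mrpl22 (ENSMUSG00000020514, chromosome 11, 58171661 to 58179565) encodes a large subunit protein whose bacterial counterpart lines the exit tunnel. It had 34, 19 and 31 counts in shRNA mCsnk2a1 and none in any shRNA Control library. Against a floor of 3 counts over the control group, it was at least 17.3-fold higher in shRNA mCsnk2a1. edgeR gave an adjusted p of 0.598. In the other arm Mrpl22 had 45, 13 and 3 counts in pcDNA4c mCsnk2a1, against 19, 11 and 6 counts in pcDNA4c Control. The shRNA Control group therefore stands apart from the other 3 groups, and against pcDNA4c Control it was at least 11.0-fold lower. Its coding transcripts read 2.86, 0 and 11.5 TPM in shRNA mCsnk2a1.

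Mrps35 (ENSMUSG00000040112, chromosome 6, 147042764 to 147073991) encodes a mitochondria-specific small subunit protein. It read 272, 351 and 0 CPM in shRNA mCsnk2a1, against 9.33, 33.3 and 5.67 CPM in shRNA Control. The first 2 shRNA mCsnk2a1 libraries were far above the controls and the third was at 0, so the groups overlap. Its log2 difference was 3.69 (SE 1.46, adjusted p = 0.598). With coding transcripts only, the log2 difference was -0.16 (limma adjusted p = 0.995). In knockdown Mrps35 passed in a single setting, edgeR with no filter on low counts (adjusted p = 0.0460).

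Mrps18c, a relative of the bacterial protein that all 3 Mrps18 genes share, read 60.5, 70.5 and 63.1 CPM in shRNA mCsnk2a1, against 15.6, 44.7 and 6.81 CPM in shRNA Control. Mrps26, specific to mitochondria, read 50.0, 27.1 and 30.0 CPM in shRNA mCsnk2a1, against 6.74, 1.19 and 6.24 CPM in shRNA Control. For Mrps28 the values were 34.2, 15.1 and 37.1 CPM in shRNA mCsnk2a1, against 3.63, 1.79 and 6.81 CPM in shRNA Control. All 3 genes had shRNA mCsnk2a1 libraries above every control. Their log2 differences were 1.53 (SE 1.25) for Mrps18c, 2.90 (SE 1.56) for Mrps26 and 2.80 (SE 1.82) for Mrps28. With coding transcripts alone, the knockdown groups of Mrps18c and Mrps26 overlap, and those of Mrps28 lie apart. In pcDNA4c mCsnk2a1 and pcDNA4c Control the same Mrps26 ran from 0 to 102 CPM, and 9.30% of its TPM was coding.

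Of the remaining higher genes, Mrpl51 read 50.3, 138 and 52.1 CPM in shRNA mCsnk2a1, against 43.6, 29.8 and 1.70 CPM in shRNA Control. Mrpl17, whose promoter is shown above and whose protein has a bacterial counterpart, read 77.7, 8.00 and 281 CPM in shRNA mCsnk2a1, against 59.1, 13.7 and 26.7 CPM in shRNA Control. The Mrpl51 groups touch no common value and the Mrpl17 groups overlap. The log2 difference was 1.68 (SE 0.95) for Mrpl51 and 1.88 (SE 1.23) for Mrpl17. Mrpl51 was 1.03 without shRNA mCsnk2a1 2, and Mrpl17 was 0.37 without shRNA mCsnk2a1 3. Mrpl24, with a bacterial counterpart, read 35.3, 48 and 48.5 CPM in shRNA mCsnk2a1, against 16.6, 27.4 and 32.9 CPM in shRNA Control. Mrps31, specific to mitochondria, read 30.0, 26.5 and 23.5 CPM in shRNA mCsnk2a1, against 12.4, 8.34 and 13 CPM in shRNA Control. In both genes the groups lie apart. With coding transcripts alone, the groups of Mrpl24, Mrps31 and Mrpl51 overlap.

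The genes whose protein has a place or role of its own varied widely between libraries of a group. Mrps18a read 12, 45.2 and 2.14 CPM in shRNA mCsnk2a1, against 7.78, 33.9 and 52.2 CPM in shRNA Control, and Mrps18b read 12.4, 74.5 and 7.84 CPM in shRNA mCsnk2a1, against 0, 4.76 and 19.3 CPM in shRNA Control. Mrps30 read 24, 60.3 and 0 CPM in shRNA mCsnk2a1, against 24.9, 7.15 and 1.13 CPM in shRNA Control. Mrps36 read 22.2, 18.5 and 18.5 CPM in shRNA mCsnk2a1, against 16.1, 5.95 and 49.9 CPM in shRNA Control. The stalk gene Mrpl12 read 41.7, 0 and 4.28 CPM in shRNA mCsnk2a1, against 28.5, 27.4 and 35.7 CPM in shRNA Control, and the hydrolase gene Mrpl58 read 76.2, 9.23 and 123 CPM in shRNA mCsnk2a1, against 7.78, 30.4 and 38.6 CPM in shRNA Control. In these 6 genes the groups overlap.

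Lower in knockdown, Mrps10, a small subunit protein with a bacterial counterpart, read 8.64, 0 and 0.713 CPM in shRNA mCsnk2a1, against 19.7, 49.4 and 45.4 CPM in shRNA Control. Its log2 difference was -3.60 (SE 1.94, adjusted p = 0.626). The other arm gave 7.87, 0 and 0.671 CPM in pcDNA4c mCsnk2a1, against 12.8, 5.00 and 16.6 CPM in pcDNA4c Control, which overlap. A second copy of Mrps10 on a patch sequence carried identical values, so the level printed is the share assigned to the chromosome 17 copy. Mrpl21, with a bacterial counterpart, read 12.8, 16.6 and 12.1 CPM in shRNA mCsnk2a1, against 19.7, 58.4 and 29.5 CPM in shRNA Control, with no overlap and a log2 difference of -1.37 (SE 1.39). Mrps2 (-1.74), Mrpl38 (-1.72), Mrpl45 (-1.70) and Mrps25 (-1.13) followed by p on the log2 scale, and all 4 had overlapping groups. Mrpl45 rested on shRNA Control 2, at 162 CPM, and was 0.93 without it, Mrpl38 was -0.35 without the same library, and Mrpl38 and Mrps25 were 0.09 and 0.24 with coding transcripts only.

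**Figure D4:**
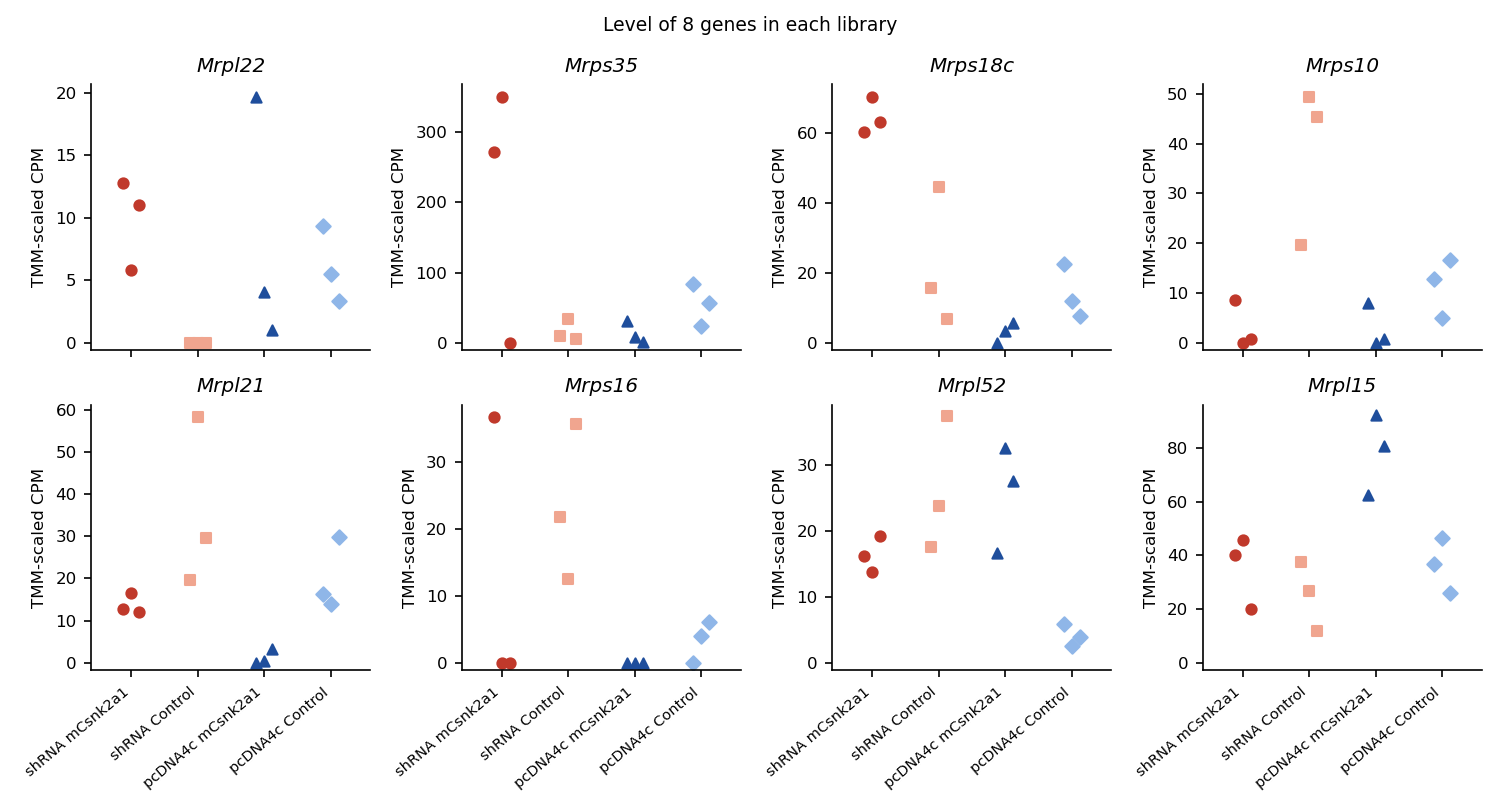
TMM-scaled CPM of 8 genes in each library, a point per library. Mrpl22 is at 0 in the 3 shRNA Control libraries, Mrps16 is at 0 in the 3 pcDNA4c mCsnk2a1 libraries, and Mrpl52 is lowest in pcDNA4c Control, at 2.50 to 5.90 CPM.

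Overexpression asked what supplying Csnk2a1 from a vector does. Again none of the 77 genes passed in edgeR's quasi-likelihood test, against 20 of all 20267 genes (0.0987%), 0.0641% higher and 0.0345% lower. DESeq2 and limma voom also called 0 of the 77. The large subunit symbols summed to 1261, 1423 and 1363 CPM in pcDNA4c mCsnk2a1, against 1334, 1222 and 1252 CPM in pcDNA4c Control. The small subunit symbols summed to 418, 939 and 371 CPM in pcDNA4c mCsnk2a1, against 553, 571 and 481 CPM in pcDNA4c Control. Both pairs of groups overlap, and so do the large subunit sums without Mrpl48, at 980, 1368 and 1227 CPM in pcDNA4c mCsnk2a1, against 1154, 1082 and 1022 CPM in pcDNA4c Control. In summed TPM the large subunit groups did not overlap, at 703, 654 and 655 TPM in pcDNA4c mCsnk2a1, against 488, 426 and 517 TPM in pcDNA4c Control. Protein-coding genes together held 200418 to 212795 TPM in pcDNA4c mCsnk2a1 and 137951 to 140385 TPM in pcDNA4c Control, so the TPM scale itself was lower for protein-coding genes in pcDNA4c Control.

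Fewer of the genes were counted at all in pcDNA4c mCsnk2a1. At least 1 count was found for 56, 60 and 67 of the 78 genes in pcDNA4c mCsnk2a1, against 72, 73 and 75 in pcDNA4c Control. After thinning all libraries to equal totals the numbers were 56, 59 and 64 in pcDNA4c mCsnk2a1, against 71, 72 and 75 in pcDNA4c Control. The small subunit symbols gave 18, 21 and 23 of 29 in pcDNA4c mCsnk2a1, against 25, 27 and 29 in pcDNA4c Control. The number over all genes differed in the same direction, with 15346 to 18375 genes counted after thinning in pcDNA4c mCsnk2a1 and 22430 to 25228 in pcDNA4c Control. In the knockdown arm 74, 69 and 68 of the 78 genes were counted in shRNA mCsnk2a1, against 68, 71 and 72 in shRNA Control, which overlap. The microglia, cone, bipolar and Müller glia markers separate the same 2 pcDNA4c groups, as given above, and their part in these values was not tested.

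The median log2 difference in overexpression was 0.21 over the large subunit symbols, with 28 of 49 above 0, and 0.08 over the small subunit symbols, with 15 of 28 above 0. Without pcDNA4c mCsnk2a1 2 the medians were 0.00 over the large and -0.98 over the small subunit symbols, and with limma voom they were -0.52 and -0.97 in that order. The median over all genes was -0.16, and 45.1% were above 0. An unadjusted p under 0.05 was found for Mrpl21 and Mrps16, both lower, against 6.58% of all genes lower, 2.15% higher and 8.73% in either direction. The groups did not overlap for 14 of the 77 genes, or 18.2%, against 15.5% of all genes. Mrpl52, Mrpl15 and Mrps21 were the 3 higher. Mrpl21, Mrpl30, Mrpl34, Mrpl41, Mrpl42, Mrpl58, Mrps7, Mrps11, Mrps18c, Mrps23 and Mrps33 were the 11 lower, and lower was the more common direction in all genes as well, at 11.8% against 3.73% higher.

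Mrpl52 (ENSMUSG00000010406, chromosome 14, 54426909 to 54429756), a mitochondria-specific large subunit gene, read 16.6, 32.6 and 27.5 CPM in pcDNA4c mCsnk2a1, against 5.90, 2.50 and 3.88 CPM in pcDNA4c Control. Its log2 difference was 2.63 (SE 1.27, adjusted p = 0.569 in edgeR). It read 16.2, 13.8 and 19.3 CPM in shRNA mCsnk2a1, against 17.6, 23.8 and 37.4 CPM in shRNA Control, so pcDNA4c Control is the group that stands apart, below all 9 other libraries. Per length the level was 35.9, 68.5 and 58 TPM in pcDNA4c mCsnk2a1, against 9.90, 4.26 and 7.12 TPM in pcDNA4c Control, and 93.8% of the gene's TPM was coding. limma on log2(TPM + 1) called it in overexpression (adjusted p = 0.0257) and in shRNA Control against pcDNA4c Control (adjusted p = 0.0188).

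Mrpl15, a large subunit gene with a bacterial counterpart, read 62.5, 92.1 and 80.6 CPM in pcDNA4c mCsnk2a1, against 36.9, 46.5 and 26 CPM in pcDNA4c Control. Its log2 difference was 1.10 (SE 0.82, adjusted p = 0.797). Most of it lay in the retained-intron transcript Mrpl15-204, at 27.1, 38.7 and 34.4 TPM in pcDNA4c mCsnk2a1, against 0, 8.55 and 5.01 TPM in pcDNA4c Control. Coding transcripts only gave -0.48 on the log2 scale. Mrps21, a small subunit gene with a bacterial counterpart, was the other gene with a higher, separate group, at 20.6, 16.9 and 34.6 CPM in pcDNA4c mCsnk2a1, against 15.7, 10.5 and 16.1 CPM in pcDNA4c Control. By smallest p the named higher genes also include Mrpl46, Mrps36, Mrpl37 and Mrps5, with log2 differences of 2.75, 1.88, 1.72 and 1.51 in that order, all with overlapping groups. Each moved with 1 library: Mrpl37 was -1.09, Mrps36 -0.36 and Mrps5 0.30 without pcDNA4c mCsnk2a1 2, and Mrpl46 was 1.41 without pcDNA4c mCsnk2a1 1.

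Mrpl21 (ENSMUSG00000024829, chromosome 19, 3282901 to 3292837) read 0, 0.313 and 3.36 CPM in pcDNA4c mCsnk2a1, against 16.2, 14 and 29.9 CPM in pcDNA4c Control. Every control library was above every pcDNA4c mCsnk2a1 library, and the log2 difference was -3.96 (SE 1.55, adjusted p = 0.568). Its coding transcripts were at 0 in pcDNA4c mCsnk2a1 and read 0, 2.26 and 0 TPM in pcDNA4c Control, and retained-intron transcripts held most of its TPM there. Mrps16, a small subunit gene with a bacterial counterpart, had 0 counts in all 3 pcDNA4c mCsnk2a1 libraries, against 0, 8 and 11 counts in pcDNA4c Control. By the floor of 3 counts over the group, Mrps16 was at least 9.18-fold lower in pcDNA4c mCsnk2a1. The groups overlap at 0, and this bound rests on 19 counts in 2 pcDNA4c Control libraries. Mrpl34, also with a bacterial counterpart, had 0 counts in pcDNA4c mCsnk2a1, against 1, 1 and 8 counts in pcDNA4c Control. These are few counts, and in the knockdown arm Mrps16 had 98, 0 and 0 counts in shRNA mCsnk2a1, against 42, 21 and 63 counts in shRNA Control.

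Mrps18c read 0, 3.45 and 5.71 CPM in pcDNA4c mCsnk2a1, against 22.6, 12.0 and 7.76 CPM in pcDNA4c Control, a log2 difference of -2.18 (SE 1.29). Mrpl58, the peptidyl-tRNA hydrolase, read 0, 1.88 and 13.8 CPM in pcDNA4c mCsnk2a1, against 28, 19 and 24.9 CPM in pcDNA4c Control, a log2 difference of -2.18 (SE 1.34). Neither pair of groups overlaps. With coding transcripts alone, the Mrps18c groups lie apart and the Mrpl58 groups overlap. Mrpl23, a protein at the tunnel exit by its bacterial counterpart, read 0.437, 10.3 and 0 CPM in pcDNA4c mCsnk2a1, against 124, 6.50 and 6.09 CPM in pcDNA4c Control, which overlap, and its difference of -3.63 on the log2 scale was -0.79 without pcDNA4c Control 1. A processed pseudogene, Mrpl23-ps1, was counted in 9 libraries at a mean of 8.97 CPM, so Mrpl23 levels are uncertain.

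**Figure D5:**
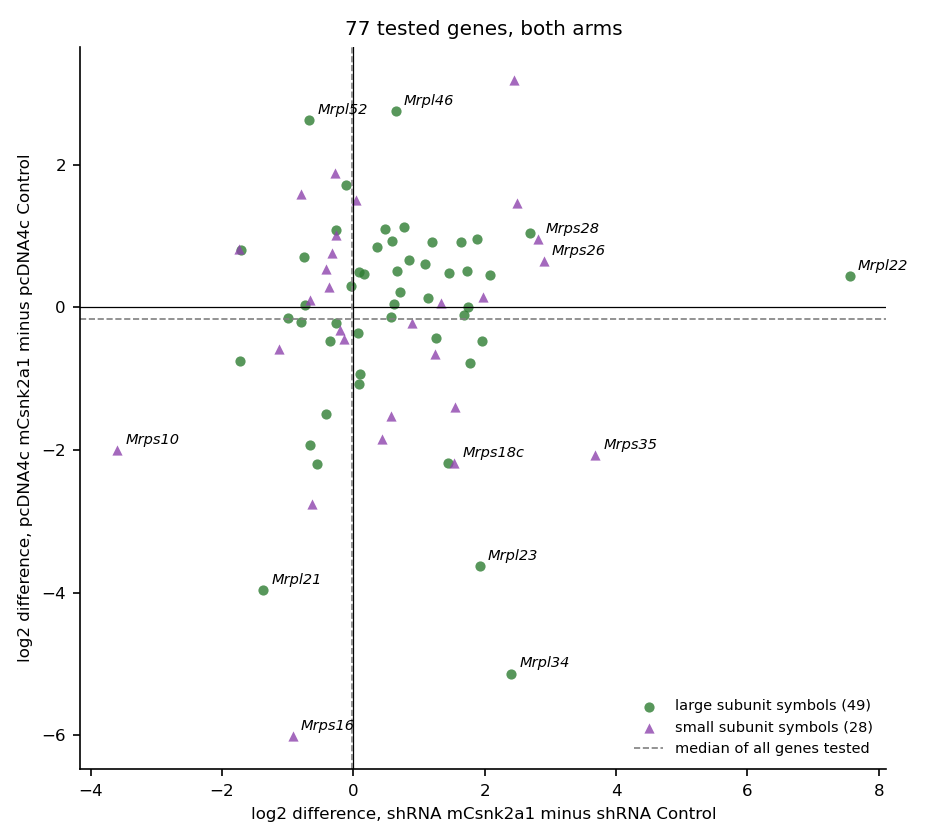
Log2 difference of each of the 77 tested genes in knockdown (x axis) and in overexpression (y axis), circles for large and triangles for small subunit symbols, with dashed lines at the medians of all genes. Genes are spread over all 4 quadrants, 28 above 0 in both arms and 15 below 0 in both.

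The arms share no library and can be set side by side. Of the 77 genes, 28 were above 0 in both arms and 15 below 0 in both, or 55.8% with the same sign, against 53.2% of all genes. Another 19 were above 0 in knockdown alone and 15 in overexpression alone. For the overexpression difference minus the knockdown difference, no gene of the 77 passed, against 4 of all genes (0.0197%). The median was -0.51 over the large and -0.67 over the small subunit symbols, and -0.15 over all genes, of which 47% were above 0. An unadjusted p under 0.05 was found for Mrps35 (-5.75, SE 2.00, adjusted p = 0.493) and Mrpl22 (-7.12, SE 3.06, adjusted p = 0.554), both lower, against 5.16% of all genes lower, 3.19% higher and 8.34% in either direction. Mrps18c, in CPM higher in 1 arm and lower in the other with no overlap in either, differed by -3.71 (SE 1.79, adjusted p = 0.607 in edgeR). With coding transcripts alone, the Mrps18c groups overlap in knockdown and lie apart in overexpression. Toward higher values stood Mrpl52 at 3.31 (SE 1.74, adjusted p = 0.636), Mrps2 at 2.56 (SE 2.01, adjusted p = 0.791) and Mrps5 at 1.46 (SE 1.29, adjusted p = 0.836), which was 0.24 without pcDNA4c mCsnk2a1 2. Mrps35 passed this test with no filter on low counts (adjusted p = 0.00486).

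shRNA Control and pcDNA4c Control, which carry no Csnk2a1 construct, were also set against each other, and each serves as the control of its own arm. They differ in microglia markers, at 61.9 to 88.7 CPM in shRNA Control and 1050 to 1221 CPM in pcDNA4c Control. Cycling progenitor markers were also lower in shRNA Control, at 78.6 to 133 CPM, against 154 to 196 CPM in pcDNA4c Control. Higher in shRNA Control were bipolar markers, at 298 to 445 CPM, against 111 to 162 CPM in pcDNA4c Control. So were Müller glia markers, at 208 to 369 CPM, against 122 to 172 CPM in pcDNA4c Control. The part of these lists in the values was not tested. None of the 77 genes passed between them, against 14 of all genes (0.0691%), 0.0148% higher and 0.0543% lower in shRNA Control. An unadjusted p under 0.05 was found for Mrpl36, higher in shRNA Control, and Mrpl22, lower there, against 1.44% of all genes higher, 2.77% lower and 4.21% in either direction. The groups did not overlap for 9 of the 77 genes (11.7%), 5 higher and 4 lower in shRNA Control, against 13.7% of all genes, 5.13% higher and 8.56% lower. Mrpl36, with a bacterial counterpart, had 0, 2 and 30 counts in shRNA Control, against 0 in all 3 pcDNA4c Control libraries. The groups overlap at 0, and without shRNA Control 3 its 2 counts are under the floor of 3. It was at 0 in pcDNA4c mCsnk2a1 too, and read 34.6, 0 and 26.7 CPM in shRNA mCsnk2a1. The other genes with the smallest p were Mrpl52 at 2.67 (SE 1.28, adjusted p = 1), Mrpl32 at 1.89 (SE 1.25, adjusted p = 1), Mrpl4 at -2.81 (SE 2.06, adjusted p = 1) and Mrps26 at -2.58 (SE 1.55, adjusted p = 1), in log2 differences of shRNA Control over pcDNA4c Control. The median log2 difference was -0.02 over the large and 0.10 over the small subunit symbols, and became 0.29 over the large without shRNA Control 1 and -0.07 over the small without shRNA Control 3.

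The rest of the mitochondrial translation apparatus was read from gene lists. The 12S ribosomal RNA of the small subunit, mt-Rnr1, is encoded by mitochondrial DNA and was at 28577, 38510.0 and 42617 CPM in pcDNA4c mCsnk2a1, against 20517, 21582 and 17626 CPM in pcDNA4c Control. In edgeR mt-Rnr1 stood 0.88 higher (log2, SE 0.12) in pcDNA4c mCsnk2a1 than in pcDNA4c Control, with an adjusted p of 0.00350. In knockdown mt-Rnr1 read 52073, 52334 and 58473 CPM in shRNA mCsnk2a1, against 32988, 33306 and 36211 CPM in shRNA Control, a log2 difference of 0.67 (SE 0.12, adjusted p = 0.352). In edgeR it was also higher in shRNA Control than in pcDNA4c Control, by 0.78 (SE 0.12, adjusted p = 0.00962). For mt-Rnr1, pcDNA4c Control thus lay below every library of the other groups, and shRNA mCsnk2a1 lay above every library of the other groups. The 16S ribosomal RNA of the large subunit, mt-Rnr2, had log2 differences of 0.48 (SE 0.13, adjusted p = 0.598) in knockdown and 0.28 (SE 0.13, adjusted p = 0.568) in overexpression. Between the controls mt-Rnr2 read 35986, 33624 and 34526 CPM in shRNA Control, against 48590.3, 51642 and 41780.3 CPM in pcDNA4c Control, a log2 difference of -0.45 (SE 0.13, adjusted p = 0.847), opposite in sign to mt-Rnr1. No Mrpl or Mrps gene was called in the same fits.

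The 5 mitoribosomal protein genes under other names gave no call. Dap3, Ptcd3, Chchd1, Aurkaip1 and Gadd45gip1 had log2 differences of -1.48 to 0.68 in knockdown and -1.68 to 0.39 in overexpression. Dap3, a GTP-binding small subunit protein, read 3.38, 12.6 and 214 CPM in shRNA mCsnk2a1, against 125, 138 and 0.567 CPM in shRNA Control. Of 15 mitochondrial translation factors, 0 were called in either arm, with medians of 0.78 in knockdown and -0.98 in overexpression. Of 20 tested genes for mitoribosome assembly and rRNA modification, 0 were called, with medians of 0.36 and -0.02 in the same order. The 16 tested mitochondrial aminoacyl-tRNA synthetases also gave 0 calls, with medians of -0.17 and 0.22 in that order. In knockdown the groups did not overlap for 13.3% of the 15 translation factors, 1 higher and 1 lower, against 12.3% of all genes. Tufm, which brings aminoacyl-tRNA to the ribosome, read 21.4, 47.4 and 18.2 CPM in shRNA mCsnk2a1 and 0 in all 3 shRNA Control libraries. Mrrf, the lower gene, read 3.38, 0 and 0 CPM in shRNA mCsnk2a1, against 18.1, 18.5 and 13 CPM in shRNA Control. Both genes are named here after their values were seen.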

How the data were processed

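RNA was measured in 12 libraries, 3 per group. Quantification used kallisto 0.45.0 and mm10, and edgeR 3.28 is listed too, per the submitters' processing notes; settings and strand use are not given. Estimated counts per gene, as deposited, are not whole (100% of values above 0). For these genes each deposited count equalled the gene's summed TPM times a constant per gene and per library (largest relative departure 2.82e-13 over 828 values), so it follows transcript lengths and is not a tally of fragments. The deposited transcript table holds TPM. Another deposited table holds a scaled signal, the counts times 1 constant per library, for 11 libraries and was not used for tests.

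Counts were rounded and fitted with edgeR 4.0.16 in R 4.3.3: filterByExpr (minimum count 10), TMM, 4 groups in a single quasi-likelihood model, Benjamini-Hochberg adjustment over 20267 genes, threshold 0.05. CPM is TMM-scaled and compares a gene across libraries; TPM is per length and compares genes. The standard error (SE) of a log2 difference is its size over the square root of F. Bounds use a floor of 3 counts over a group and cover counting error alone, as amplified copies of a molecule are not independent. The fit was also run on simulated counts. Its outcome is not given here, so how often a real change would be missed is not stated.

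The 78 genes follow from their symbols alone, but this family, the gene lists and the tests were chosen with earlier results of these data known. Named were genes that passed, the 6 of each direction with the smallest p in knockdown and in overexpression (3 of each in the other contrasts), the 6 highest and 3 lowest mean TPM per subunit, genes whose protein has a place or role other than the symbol says, genes at 0 in all 3 libraries of a group and above 0 in all 3 of the group compared, and the list genes given. Words of 31 bases were compared with GENCODE M21 transcripts. Alternatives were other scalings and filters, DESeq2 1.42.0, limma 3.58.1 (voom, and log2 of TPM with pseudocount 1), a replicate block and leaving out each library.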

Additional observations from a re-analysis of the deposited data

How the results depend on the processing

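Depth was low for single genes, with a median of 34 counts per gene and library. Of 843 alternative values for named genes, 827 kept their direction and their side of the threshold, 7 passed where the main value did not, and 9 turned. None of these genes passed in the main fit, so most values could be foreseen to keep their side. A value that shrank counts as kept, such as Mrps26 in knockdown, 2.90 in the main fit and 0.086 at its lowest. The 827 therefore do not measure how stable the sizes are. Those that turned were, with coding transcripts only (chosen after seeing the data), Mrps35 (-0.16), Mrpl38 (0.089) and Mrps25 (0.24) in knockdown, Mrpl15 (-0.48) in overexpression and Mrps26 (0.10) between controls; with limma voom Mrps36 (-0.054) in overexpression; and, over fits that left out 1 library, Mrpl45 in knockdown (-3.29 to 0.93) and Mrpl37 (-1.09 to 2.35) and Mrps36 (-0.36 to 2.52) in overexpression. The cause was not tested.

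Leaving out each library gave 0 calls among the 77 genes in every contrast. All-gene calls then ran from 0 to 4 in knockdown, 14 to 35 in overexpression, 2 to 16 for the difference of arms and 11 to 20 between controls. Large subunit medians ran from 0.42 to 0.81 in knockdown, 0.00 to 0.29 in overexpression, -0.84 to -0.22 for the difference and -0.13 to 0.29 between controls. Small subunit medians ran from -0.025 to 0.81, -0.98 to 0.38, -1.60 to -0.12 and -0.07 to 0.54 in the same order.

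Calls over all genes moved with the tool. DESeq2 gave 183 in knockdown, 249 in overexpression, 209 for the difference and 69 between controls, and edgeR with no filter gave 93, 111, 137 and 71 in that order. limma voom gave 2, 37 and 1 in the first 3 contrasts. limma on log2(TPM + 1) gave 1, 63, 25 and 49, and with coding transcripts only 10, 107, 48 and 109. DESeq2 size factors gave 2 for the difference, a minimum of 50 counts gave 2 there, and a fit of the 6 libraries alone gave 6 in overexpression.

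A single gene of the 77 passed with no filter, Mrps35, in knockdown (1) and the difference (1). A single gene, Mrpl52, passed with limma on TPM in overexpression (1) and between controls (1), and with coding transcripts only in these and in the difference (1 each).

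The knockdown median of the large subunit symbols was 0.33 with voom, 0.31 with limma on TPM and 0.021 with coding transcripts only. In overexpression it was -0.52 with voom, 0.45 with the 50-count minimum and -0.050 with coding transcripts only. For the difference it was -1.45 with voom, 0.022 with limma on TPM and -0.11 with coding transcripts only, and between controls 0.40 and 0.24 for the last 2. Small subunit medians with voom were -0.97 in overexpression and -1.94 for the difference. The median of all genes moved too, to -0.28, -0.79 and -0.46 with voom in the first 3 contrasts.

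Replicate numbers did not pair the libraries: same-numbered libraries of different groups had correlations of -0.04 to 0.04 of their deviations. With the replicate block, 1 gene was called in knockdown and 9 for the difference, and the overexpression median of the large subunit symbols was -0.019.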
